A study of Oryza sativa Japonica Group with 12 samples.

Results

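The expansin family was followed in leaves of rice plants that over-express the microRNA miR156 and in wild-type leaves. The members were the genes whose annotated symbol or synonym, with a leading Os ignored, begins with EXPA, EXPB, EXLA or EXLB and a number. The gene table names 49 such genes, and 29 of them were read by the array, through 33 probe sets, out of 17905 genes and 57381 probe sets in all. They comprised 14 of 29 alpha expansins (EXPA), 11 of 15 beta expansins (EXPB) and 4 of 5 expansin-like genes (EXLA and EXLB), the 4 being EXLA1, EXLA2, EXLA3 and EXLA4. Membership went by name, with no filter on signal, but the members were chosen with earlier results of these data known. Each gene is given by its brightest probe set over the 12 arrays, which is itself a choice by signal.

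Expansins are small secreted proteins that loosen the plant cell wall without cutting its polymers, by weakening the contacts between cellulose microfibrils and the matrix that coats them. They act at the acidic wall pH of growing cells and let the wall yield to turgor, so in leaves they are known from the zones where cells still expand. Alpha expansins are found in growing tissues of all land plants. Beta expansins are a large family in grasses, where some act on the grass-type wall of growing organs and others, the group of the pollen allergens, on the walls of the stigma and style. The expansin-like proteins share the family's domains, but no wall-loosening activity is established for them.

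The over-expression plants (OE) were 3 independent transgenic lines, Md15, Md43 and Mh9 as replicates 1, 2 and 3, that had been selected on hygromycin. The wild-type plants (WT) were 3 plants without the transgene. From each plant, at 45 days, came leaf 6 (L6), a young leaf, and leaf 3 (L3), an old leaf of the same main tiller, which gave the groups OE_L6, WT_L6, OE_L3 and WT_L3 with 3 arrays each. Leaf age and leaf position differ together between L6 and L3, and the OE plants differ from WT by transformation and selection as well as by miR156, so neither pair can be told apart here. The labels do not give the promoter of the transgene. Per the labels the replicates are separate plants, and with 3 arrays a group the precision is limited. The values are linear signals of an Affymetrix rice array, on which different probe sets have different sensitivities, so levels are compared between samples and never between genes. Differences were taken on log2(signal + 16), with a standard error (SE) from 1 limma model of all 12 arrays, and folds come from that scale, which understates the change of dim genes. A gene passed, or was called, when its p adjusted over all 57194 probe sets (Benjamini-Hochberg) was under 0.05.

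The L3 arrays were uneven. A score of leaf age, built without the expansins and scaled from the mean L3 (0) to the mean L6 (1) of the other genotype, ran from 0.879 to 1.02 in OE_L6 and from 0.915 to 1.107 in WT_L6. It was 0.254, 0.210 and -0.222 in OE_L3 replicates 1 to 3 and 0.379, -0.284 and -0.264 in WT_L3 replicates 1 to 3. WT_L3 replicate 1 also had the lowest mean correlation with the arrays of its own group, at 0.902, where the other 11 arrays lay between 0.935 and 0.986. The median signals of the arrays lay between 50.8 and 56.5. In OE_L6 replicate 1 the Dap labelling control had a log2 signal ratio, 3′ over 5′ end, of 5.35, against 3.20 to 3.70 in the others. The results that rest on these arrays are given below with and without them.

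Of the 29 expansin genes, 9 were dim, which means a mean over the 12 arrays under the 40th percentile of the 57194 probe sets tested, a signal of 41.6. These were EXPA3, EXPA4, EXPA8, EXPA26, EXPA31, EXPA32, EXPB9, EXPB10 and EXPB18, with means from 11.1 to 39.0 and single arrays from 8.70 to 45.5. EXPA3, with a mean of 39.0, lay just under the limit and EXPB2, with 47.0, just above it. EXPA4, known in rice for its part in the growth of internodes, and EXPA8, known for its part in root growth, were thus among the genes that these leaves showed at or near the lower end of the signal range. None of the 9 dim genes passed the test in any of the 5 comparisons, by limma with Benjamini-Hochberg adjustment over all probe sets, and their log2 differences lay between -0.25 and 0.23 in the 4 pairwise comparisons. Over all probe sets, 27.5% were called between the OE leaves and 31.6% between the WT leaves, and at most 0.108% in the other comparisons. The share among dim probe sets was not counted, so the lack of calls is not read as particular to these genes. At an unadjusted p under 0.05 stood EXPA4, EXPA8 and EXPA32 between the OE leaves (adjusted p = 0.0747, 0.0699 and 0.0768 with limma), where 39.9% of all probe sets did. EXPA4 also did so in L3 and in the difference of leaf differences, given with those comparisons.

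**Figure D1:**
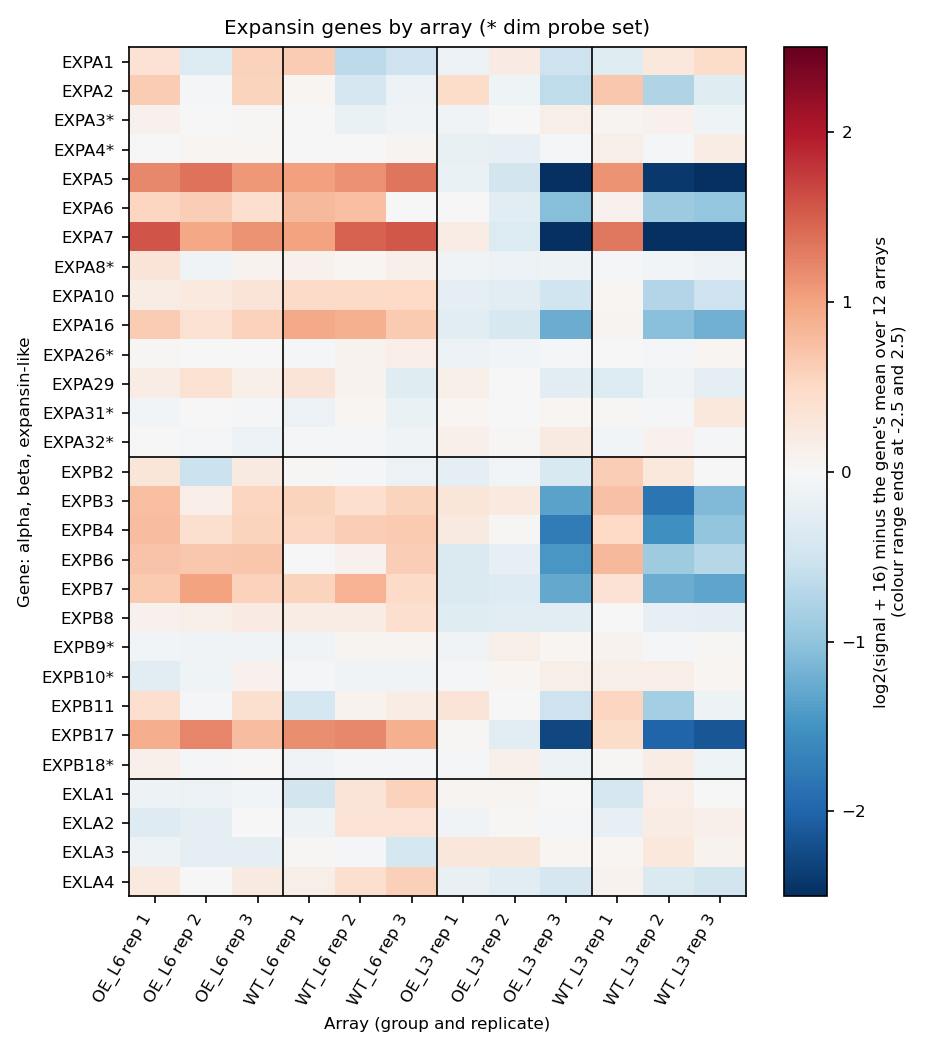
Each row is an expansin gene and each column an array; colour is log2(signal + 16) minus the gene's mean over the 12 arrays. EXPA5, EXPA7, EXPB3, EXPB4, EXPB7 and EXPB17 were low in OE_L3 replicate 3 and in WT_L3 replicates 2 and 3, while WT_L3 replicate 1 stood near the L6 arrays, and the dim genes (marked *) varied little.

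Between the young and the old leaf, expansin genes that passed the test were nearly all higher in L6. In OE, 5 of 29 genes were higher in L6 than in L3, that is 17.2%, and 1 was lower, with limma and an adjusted p under 0.05. Over all 57194 probe sets, 11.9% were higher and 15.6% lower in that comparison. In WT, 7 of 29 were higher, that is 24.1%, and 0 were lower, where all probe sets gave 15.6% higher and 16% lower. At an unadjusted p under 0.05, 11 of 29 genes differed between the WT leaves, against 42.1% of all probe sets, and 1 of the 11, EXLA3, was lower. The shares called higher were thus not far above those of all probe sets. The 4 genes EXPA10, EXPA16, EXPB7 and EXPB8 passed in both genotypes, which is 80% of the genes called higher in OE and 57.1% of those in WT. The median log2 difference of the 29 genes was 0.33 in OE and 0.17 in WT, where the medians of all probe sets were -0.01 and 0.01. The 3 arrays of each group did not overlap for 17 of the 29 genes between OE_L6 and OE_L3 and for 10 of 29 between WT_L6 and WT_L3, while 46.1% and 43.5% of all probe sets were apart in the same comparisons. All 6 L6 arrays were above all 6 L3 arrays for 5 of 29 genes (17.2%), against 11.4% of all probe sets. In bulk leaf RNA, a higher share of cells that express a gene and more of its RNA per cell cannot be told apart.

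Among the alpha expansins, 2 of 14 rose in OE_L6 over OE_L3 (EXPA10 and EXPA16) and 3 of 14 in WT_L6 over WT_L3 (EXPA6, EXPA10 and EXPA16), and none of the 14 passed as lower. Over all probe sets, 11.9% were called higher in OE_L6 and 15.6% in WT_L6, so these counts do not set the alpha expansins apart. EXPA10 (LOC4336776), known in rice as an aluminium-inducible expansin of elongating root cells, had signals of 482, 503 and 530 in OE_L6 and of 595, 594 and 602 in WT_L6. In the old leaf it had 354, 342 and 291 in OE_L3 and 433, 245 and 290 in WT_L3. All 6 L6 arrays were above all 6 L3 arrays, and the highest old leaf was WT_L3 replicate 1. The log2 difference was 0.60 (SE 0.17, adjusted p = 0.0232) between the OE leaves, a 1.51-fold rise, and 0.89 (SE 0.17, adjusted p = 0.00286) between the WT leaves, a 1.86-fold rise.

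EXPA16 (LOC4341549) had signals of 182, 151 and 175 in OE_L6 and 230, 220 and 185 in WT_L6. Its old leaves gave 90.3, 80.5 and 37.8 in OE_L3 and 118, 45.8 and 39.8 in WT_L3. Every young leaf was again above every old leaf, and the lowest values were OE_L3 replicate 3 and WT_L3 replicates 2 and 3. The gene was 2.25-fold higher in L6 in OE (log2 difference 1.17, SE 0.32, adjusted p = 0.0199) and 2.93-fold higher in WT (1.55, SE 0.32, adjusted p = 0.00446).

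EXPA6 (LOC4332763) had 231, 247 and 214 in OE_L6 and 154, 125 and 65.6 in OE_L3, against 283, 271 and 155 in WT_L6 and 168, 74.6 and 71.4 in WT_L3. The WT groups overlapped, since WT_L6 replicate 3 was below WT_L3 replicate 1. The log2 difference was 0.98 in OE (SE 0.33, adjusted p = 0.0502, and 0.0271 when the plant was fitted as a block). In WT it passed, at 1.11 (SE 0.33, adjusted p = 0.0271), but its adjusted p was 0.0555 when only the WT arrays were fitted. Over 24 alternatives the adjusted p of EXPA6 lay between 0.0168 and 0.187 in OE and between 0.00281 and 0.109 in WT.

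EXPA5, and EXPA7 by its brightest probe set, had the largest leaf differences of the family and did not pass the test. EXPA5 (LOC4330706) had 653, 732 and 602 in OE_L6, 581, 628 and 723 in WT_L6, 245, 197 and 28.3 in OE_L3, and 623, 39.0 and 33.9 in WT_L3. EXPA7 (LOC4334606), reported in rice in connection with salt tolerance, had 1296, 853 and 948 in OE_L6, 875, 1225 and 1286 in WT_L6, 491, 332 and 29.1 in OE_L3, and 1085, 46.9 and 51.0 in WT_L3. WT_L3 replicate 1 thus stood within the range of the young leaves for both genes, OE_L3 replicates 1 and 2 stood between, and the other 3 old leaves were low. Set against the mean L6 signal of the same genotype, the EXPA7 signal was 47.6%, 32.2% and 2.82% in OE_L3 replicates 1 to 3 and 96.1%, 4.16% and 4.52% in WT_L3 replicates 1 to 3. The log2 difference of EXPA7 was 2.37 (SE 1.06, adjusted p = 0.12) in OE and 2.76 (SE 1.06, adjusted p = 0.07) in WT. For EXPA5 it was 2.32 (SE 0.88, adjusted p = 0.0714) in OE and 2.45 (SE 0.88, adjusted p = 0.0547) in WT. Without WT_L3 replicate 1 both genes passed in WT, EXPA5 at 3.65 (adjusted p = 0.000615) and EXPA7 at 4.12 (adjusted p = 0.00177), within ranges over all alternatives of 0.000615 to 0.2 and 0.00177 to 0.234.

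The other alpha expansins above the dim limit showed no leaf difference that passed. EXPA2 had 572, 357 and 541 in OE_L6, 373, 267 and 325 in WT_L6, 504, 334 and 228 in OE_L3, and 591, 209 and 292 in WT_L3, and its groups overlapped throughout. EXPA1 ranged from 57.9 to 166 over the 12 arrays and EXPA29 from 34.1 to 67.1, both with overlapping groups. The log2 difference of EXPA1 was 0.35 in OE and -0.31 in WT (SE 0.36 in each).

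**Figure D2:**
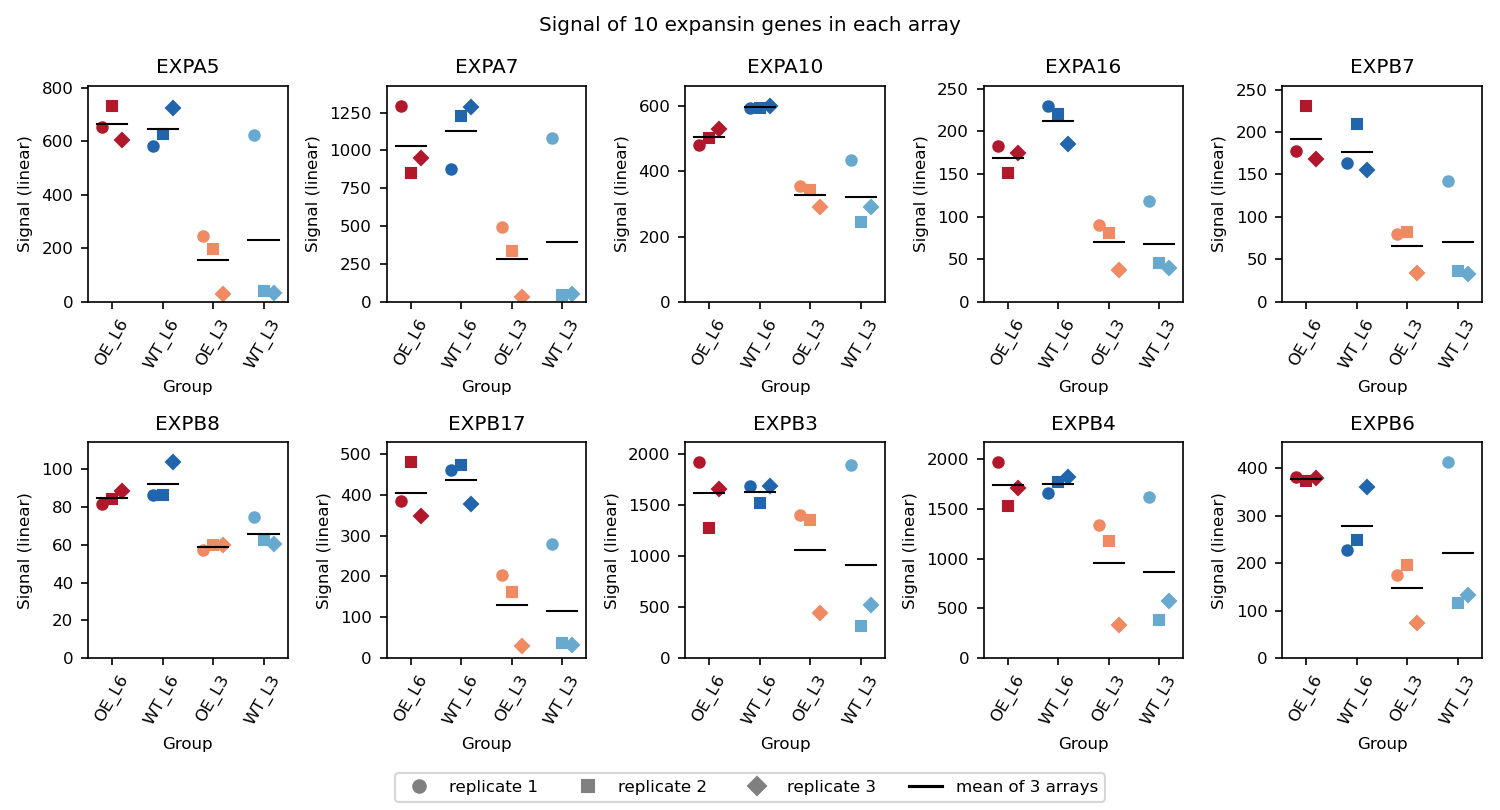
Linear signal of 10 expansin genes in each array by group; symbols are replicates 1 to 3 and the bar is the mean of the 3 arrays. In WT_L3 the circle (replicate 1) is the highest old leaf of each gene shown, while EXPA10, EXPA16, EXPB7, EXPB8 and EXPB17 have every L6 array above every L3 array.

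Of the 11 beta expansins, 3 rose in OE_L6 over OE_L3 (EXPB6, EXPB7 and EXPB8) and 3 in WT_L6 over WT_L3 (EXPB7, EXPB8 and EXPB17), and none passed as lower in either. The shares of all probe sets called higher were 11.9% and 15.6%. EXPB17 (LOC4336479), by its brightest probe set, had the largest difference that passed. It had 385, 481 and 349 in OE_L6, 460, 472 and 377 in WT_L6, 202, 161 and 28.2 in OE_L3, and 279, 37.2 and 32.6 in WT_L3. Its young leaves lay above all old leaves, and its old leaves fell apart in the same way as for EXPA5 and EXPA7. Its log2 difference was 1.80 in OE (SE 0.68, adjusted p = 0.0711), which did not pass, and 2.30 in WT (SE 0.68, adjusted p = 0.0254), where it was 4.93-fold higher in L6.

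EXPB7 (LOC4331300) and EXPB8 (LOC4331298) lie close together in the gene table, with 1 gene between them, and both passed in both genotypes. EXPB7 had 178, 231 and 168 in OE_L6, 164, 209 and 156 in WT_L6, 79.8, 81.8 and 34.4 in OE_L3, and 143, 36.3 and 33.2 in WT_L3. Its rise in L6 was 2.65-fold in OE (log2 difference 1.41, SE 0.40, adjusted p = 0.0244) and 2.57-fold in WT (1.36, SE 0.40, adjusted p = 0.0244; 0.0602 with only the WT arrays fitted, in a range of 0.000278 to 0.104 over the alternatives). EXPB8 moved less but with a narrow spread: 81.6, 84.2 and 88.3 in OE_L6, 86.2, 86.3 and 104 in WT_L6, 57.2, 59.7 and 59.6 in OE_L3, and 74.8, 62.5 and 60.6 in WT_L3. Its rise was 1.34-fold in OE (0.43, SE 0.09, adjusted p = 0.00513) and 1.32-fold in WT (0.40, SE 0.09, adjusted p = 0.00631).

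EXPB6, EXPB2, EXPB3 and EXPB4 follow each other directly in the gene table of assembly ASM3414082v1. EXPB3, EXPB4, EXPB6 and EXPB11 are known from growing internodes of deepwater rice. EXPB6 (LOC4349347) had 383, 372 and 379 in OE_L6 and 174, 196 and 73.0 in OE_L3, which did not overlap. In WT it had 229, 248 and 360 in WT_L6 and 414, 116 and 134 in WT_L3, where the highest single value of all 12 arrays was the old leaf of replicate 1. It passed in OE, with 2.57-fold more signal in L6 (log2 difference 1.36, SE 0.43, adjusted p = 0.0354), but not with the plant as a block (adjusted p = 0.0589), and the range over all alternatives was 0.00428 to 0.137. In WT the log2 difference was 0.50 (SE 0.43, adjusted p = 0.407), and 1.04 (adjusted p = 0.0239) without WT_L3 replicate 1.

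EXPB3 (LOC4349349) had 1920, 1270 and 1654 in OE_L6, 1683, 1516 and 1680 in WT_L6, 1400, 1346 and 439 in OE_L3, and 1891, 310 and 523 in WT_L3. EXPB4 (LOC4349350) had 1974, 1527 and 1708 in OE_L6, 1665, 1770 and 1821 in WT_L6, 1342, 1180 and 334 in OE_L3, and 1624, 386 and 576 in WT_L3. Neither passed in either genotype: the log2 difference of EXPB3 was 0.75 in OE and 1.24 in WT (SE 0.57 in each), and that of EXPB4 was 1.07 in OE and 1.27 in WT (SE 0.53 in each). Without WT_L3 replicate 1 they passed in WT, at 1.97 (adjusted p = 0.00399) and 1.86 (adjusted p = 0.00859). The EXPB4 probe set is of a type that can bind transcripts of several genes (suffix _s_at), so its signal may be shared with a near copy. EXPB2, between EXPB6 and EXPB3 in the table and reported to act in root growth, had signals near the dim limit, with 60.2, 26.1 and 56.0 in OE_L6, 46.9, 43.8 and 39.8 in WT_L6, 36.1, 42.4 and 31.1 in OE_L3, and 78.1, 58.2 and 44.9 in WT_L3. EXPB11 had 409, 294 and 401 in OE_L6, 217, 318 and 343 in WT_L6, 377, 301 and 205 in OE_L3, and 439, 160 and 274 in WT_L3, with overlapping groups.

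Of the expansin-like genes, 1 of 4 passed as lower in OE_L6 over OE_L3 (EXLA3) and 1 of 4 as higher in WT_L6 over WT_L3 (EXLA4). The share of all probe sets was 15.6% in each of these directions. EXLA4 (LOC4342109) had 176, 145 and 172 in OE_L6, 163, 198 and 229 in WT_L6, 127, 116 and 105 in OE_L3, and 155, 109 and 102 in WT_L3. Its leaf difference was 0.45 in OE (SE 0.16, adjusted p = 0.0529), and in WT it rose 1.55-fold in L6 (log2 difference 0.63, SE 0.16, adjusted p = 0.0113). EXLA3 (LOC4343213) had 152, 141 and 140 in OE_L6, 171, 161 and 118 in WT_L6, 208, 205 and 174 in OE_L3, and 173, 202 and 178 in WT_L3. It was the 1 of 29 members with all young leaves below all old leaves (3.45%), against 13.9% of all probe sets. It was also the 1 that passed as lower in L6, by 1.31-fold in OE (log2 difference -0.39, SE 0.13, adjusted p = 0.0426). With the plant as a block the adjusted p was 0.0657, in a range of 0.0162 to 0.112 over the alternatives, and in WT the difference was -0.28 (SE 0.13, adjusted p = 0.119).

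EXLA1 had 686, 678 and 716 in OE_L6, 546, 946 and 1131 in WT_L6, 793, 792 and 753 in OE_L3, and 556, 852 and 750 in WT_L3, and did not pass in either genotype. EXLA2, by its brightest probe set, had 149, 160 and 187 in OE_L6, 173, 244 and 246 in WT_L6, 177, 194 and 183 in OE_L3, and 161, 216 and 208 in WT_L3. Its leaf differences were -0.15 in OE and 0.16 in WT (SE 0.15 in each). This probe set has the suffix _x_at, which marks probes that can bind other transcripts.

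**Figure D3:**
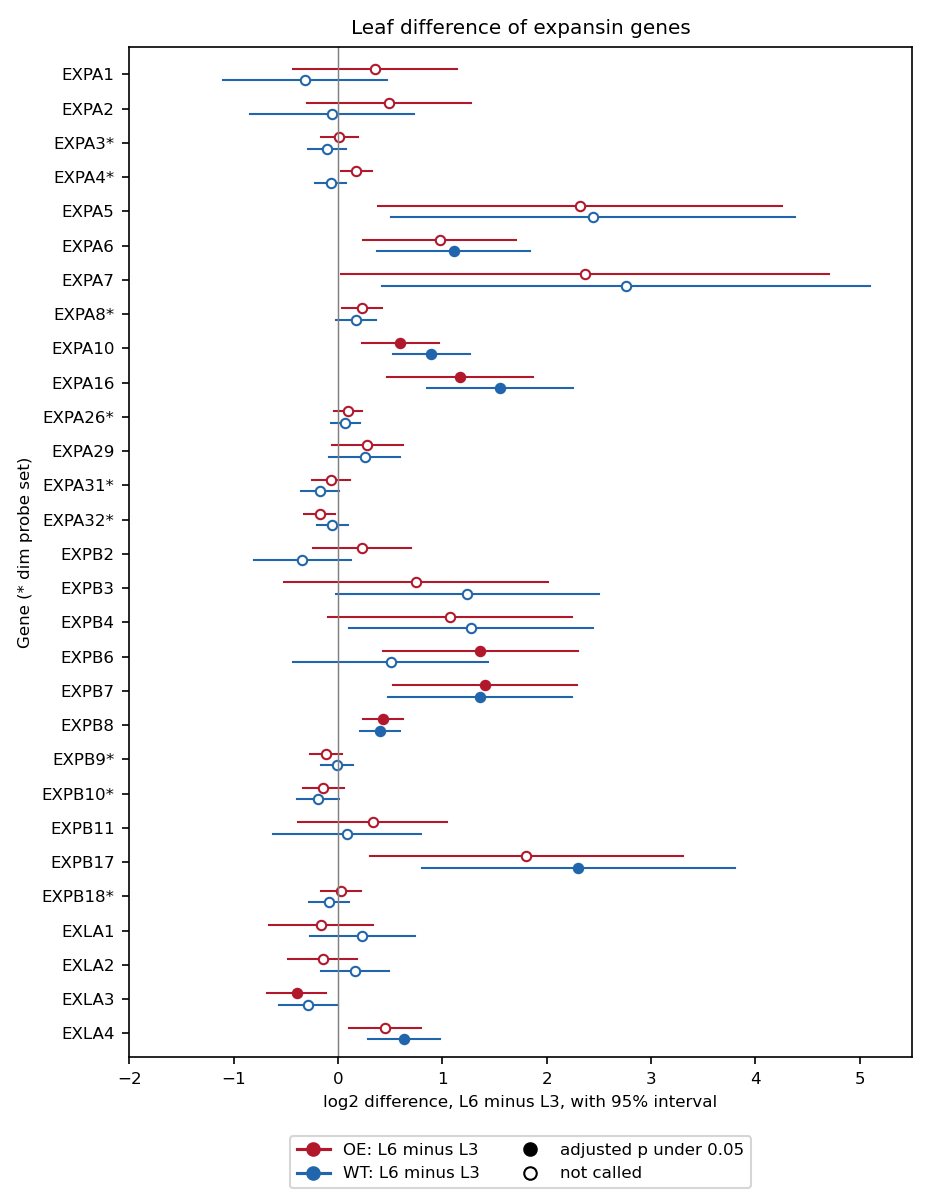
Log2 difference of L6 minus L3 with its 95% interval for each expansin gene, in OE (upper mark of each pair) and WT (lower mark); filled marks have an adjusted p under 0.05. EXPA10, EXPA16, EXPB7 and EXPB8 are filled in both genotypes, while EXPA5 and EXPA7 lie farthest to the right with the widest intervals and are not filled.

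Which leaf differences rest on single arrays was measured by leaving out each of the 12 arrays in turn. EXPB8 passed in OE without any 1 of the 12, and EXPA10, EXPA16 and EXPB8 did so in WT. The number of expansin genes called higher in OE_L6 was 1 without OE_L3 replicate 3, which left EXPB8. It was 2 without OE_L6 replicate 1 or replicate 3, 3 without OE_L6 replicate 2, and 10 without WT_L3 replicate 1, whose spread is pooled in the fit. Of all 57194 probe sets, 6787 were called higher in OE_L6 with every array and 2870 without OE_L3 replicate 3. They were 4632, 3677 and 4543 without OE_L6 replicates 1, 2 and 3, and 8818 without WT_L3 replicate 1. EXPB6 lost its call without each of the OE_L6 replicates (0.0799 to 0.0833), EXPA10 without OE_L6 replicate 2 or 3 (0.0602 and 0.0674), EXPA16 without OE_L6 replicate 1 or 3 (0.0569 and 0.0537) and EXPB7 without OE_L6 replicate 1 or 2 (0.0522 and 0.0813). The lower call of EXLA3 was lost without OE_L6 replicate 1, 2 or 3, OE_L3 replicate 1 or 2, WT_L6 replicate 2 or WT_L3 replicate 3, at 0.0546 to 0.112. The number called higher in WT_L6 was 12 without WT_L3 replicate 1, 4 without WT_L3 replicate 2 or WT_L6 replicate 2, and 3 without WT_L3 replicate 3. Of all probe sets, 8930 were called higher in WT_L6 with every array and 10924, 4556 and 4147 without WT_L3 replicates 1, 2 and 3. Without WT_L6 replicate 2 they were 5030. EXPA5, EXPA7 and EXPB4 also passed in WT without OE_L3 replicate 3 (adjusted p = 0.0327, 0.0351 and 0.0313 with limma). In WT, EXPB7, EXPB17 and EXPA6 each lost their call without WT_L3 replicate 2 or 3, with adjusted p-values from 0.101 to 0.109, and EXLA4 lost its call without WT_L3 replicate 3, at 0.0546. EXPB17 also lost it without each of the WT_L6 replicates (0.0567 to 0.0745), EXPA6 without WT_L6 replicate 1 or 2 (0.0824 and 0.0938) and EXPB7 without WT_L6 replicate 2 or 3 (0.0844 and 0.0521).

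The scatter within groups was described over the genes that were not dim, with no test. The median SD of log2 signal within a group, over these 20 genes, was 0.146 in OE_L6, 0.229 in WT_L6, 0.476 in OE_L3 and 0.646 in WT_L3. Over the 34316 probe sets that were not dim it was 0.118, 0.118, 0.112 and 0.139 in the same order of groups. OE_L3 replicate 3, line Mh9, was the lowest of its group in 18 of the 20 genes (90%), against 42.2% of those probe sets. WT_L3 replicate 1 was the highest of the 6 L3 arrays in 15 of the 20 genes (75%), against 31.9% of the probe sets, and it was the highest old leaf for all 7 genes that passed in WT. The share among all probe sets called higher in WT_L6 was not counted, so this is not read as particular to expansins. XTH8 and the primary wall cellulose synthases CESA1, CESA3 and CESA8 were highest in the same old leaf.

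Markers of growing and of wall-forming cells were uneven among the old leaves in the same arrays. The summed signal of 15 measured genes of dividing cells (cyclins, CDKB, PCNA and MCM genes, of which 1 was dim) was 4941, 6422 and 4867 in OE_L6 and 6543, 5698 and 3295 in WT_L6. It was 2502, 2975 and 907 in OE_L3 and 4165, 949 and 949 in WT_L3. The sum of the 3 secondary wall cellulose synthases CESA4, CESA7 and CESA9 ran from 3179 to 4373 in OE_L6 and from 3884 to 4567 in WT_L6. In the old leaves it was 1232, 1391 and 204 in OE_L3 and 2713, 165 and 167 in WT_L3. Of the lists, 1 of 15 dividing-cell genes passed as higher in OE_L6 over OE_L3 and 7 of 15 in WT_L6 over WT_L3, and of the secondary wall genes 1 of 3 and 3 of 3. Over all probe sets the shares called higher were 11.9% in OE_L6 and 15.6% in WT_L6. Both sums were lowest in OE_L3 replicate 3 and WT_L3 replicates 2 and 3, the arrays in which EXPA5, EXPA7 and EXPB17 were lowest. Their part in the expansin results was not tested.

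Markers of other cell types were read as well. The 2 mesophyll genes read, of which 1 was dim, summed to between 12540 and 13021 in OE_L6, 12866 and 13111 in WT_L6, 8557 and 11257 in OE_L3, and 9210 and 11246 in WT_L3. Nearly all of this sum was RBCS, read by a probe set with the suffix _x_at that can bind other transcripts. RBCS passed as higher in WT_L6 than in WT_L3, with a log2 difference of 0.37 (adjusted p = 0.0115, limma). The 6 KNOX-class genes of the meristem list, 3 of them dim, summed to between 880 and 910 in OE_L6, 782 and 909 in WT_L6, 1049 and 1128 in OE_L3, and 902 and 1126 in WT_L3. OSH45, at 541 to 929 over the 12 arrays, carried most of this sum and was lower in L6, with log2 differences of -0.44 in OE (adjusted p = 0.0187, limma) and -0.43 in WT (adjusted p = 0.0166). OSH43 was higher in L6, at 0.43 in OE (adjusted p = 0.00321) and 0.53 in WT (adjusted p = 0.000942). Since OSH45 and OSH43 moved in opposite directions, the sum is not read here as a measure of meristem cells. OSH1, the defining gene of the shoot meristem, was dim at 18.1 to 25.2 in all arrays. The 4 genes of senescing leaves summed to between 2578 and 3628 in OE_L6, 2601 and 3381 in WT_L6, 4126 and 4804 in OE_L3, and 3812 and 4723 in WT_L3. In WT, SGR and RCCR1 passed as lower in L6, with log2 differences of -1.33 and -1.66 (adjusted p = 0.000213 and 5.07e-05, limma). NYC1, the largest part of the sum, did not pass (-0.28, adjusted p = 0.446). NOL went the other way without passing (0.43, adjusted p = 0.0555), so the sum is not read as a measure of senescence. The anther list matched 5 genes, of which 2 were dim, and 1 of the 5 was a cystatin gene that shares a synonym with CP1. The cystatin carried nearly all of the list's signal, with 1451 to 7928 over the 12 arrays, and is not read here as an anther gene. Of the other 4 genes, RTS, a tapetum gene, was dim, at no more than 25.0 in any array, and TDR had 47.1 to 67.1 and did not pass between leaves in either genotype. The anther CP1, a cysteine protease gene at 41.3 to 62.6, was higher in L6, with log2 differences of 0.27 in OE (adjusted p = 0.018, limma) and 0.30 in WT (adjusted p = 0.00917). The dim C6 had 6.41 to 12.1. Their part in the expansin results was not tested either.

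Over-expression of miR156 gave no expansin gene that passed the test in either leaf. In L3, limma called 0 of 29 genes between OE_L3 and WT_L3, where 62 of all probe sets, 0.108%, were called in either direction. At an unadjusted p under 0.05 there were 2 of 29 genes, against 4.32% of all probe sets. EXPA4, a dim gene, had 12.6, 12.1 and 15.4 in OE_L3 and 20.2, 15.7 and 20.9 in WT_L3, a log2 difference of -0.25 (SE 0.07, unadjusted p = 0.00382, adjusted p = 0.638). EXPB2, with the signals given above, had a log2 difference of -0.52 (SE 0.21, unadjusted p = 0.0313, adjusted p = 1). The next gene by p was the dim EXPA32, at 0.13 (unadjusted p = 0.09). The arrays of OE_L3 and WT_L3 did not overlap for 4 of 29 genes, EXPA4, EXPA26, EXPB2 and EXPB8, while 9.16% of all probe sets were apart in either direction. The 4 were lower in OE_L3, but the share of all probe sets apart and lower was not counted. EXPA4 and EXPA26 are dim, and EXPA26 was barely apart, at 33.007 in OE_L3 replicate 3 and 33.013 in WT_L3 replicate 2. The median log2 difference of the 29 genes was 0.02, and 16 of them were positive.

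In L6, limma called 0 of 29 genes between OE_L6 and WT_L6, where 44 probe sets, 0.0769%, were called. At an unadjusted p under 0.05 there was 1 of 29, against 6.67% of all probe sets. This was EXLA2, with a log2 difference of -0.38 by its brightest probe set (SE 0.15, unadjusted p = 0.0285, adjusted p = 0.733). The other probe set of EXLA2 had 80.9, 66.6 and 84.3 in OE_L6 and 103, 98.8 and 103 in WT_L6, which did not overlap, at -0.34 (SE 0.12, unadjusted p = 0.0137, adjusted p = 0.707). The next genes by p were EXPA2 at 0.57 (unadjusted p = 0.142) and EXLA4 at -0.23 (unadjusted p = 0.17). The log2 differences of EXLA1 and EXLA3 were -0.27 and -0.04, and that of EXLA3 was 0.06 without WT_L6 replicate 1. The arrays of OE_L6 and WT_L6 did not overlap for 3 of 29 genes, against 13.5% of all probe sets. EXPA10 and EXPA16 were lower in every OE_L6 array and EXPB6 higher, with log2 differences of -0.24, -0.30 and 0.44 (adjusted p = 0.828, 0.898 and 0.879).

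These comparisons were not equally precise for all members. The 95% interval of the OE minus WT difference took in a change of 2-fold for 9 of 29 genes in L6 and for 7 of 29 in L3. For EXPA7 it ran from -2.47 to 2.21 in L6 and from -2.08 to 2.60 in L3 on the log2 scale, which takes in changes of 4-fold in either direction. For EXPB8 it ran from -0.29 to 0.09 in L6 and from -0.32 to 0.06 in L3. The fit pools the spread of the 4 groups, and since the old leaves scattered more, the intervals are on average too wide for L6 and too narrow for L3.

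**Figure D4:**
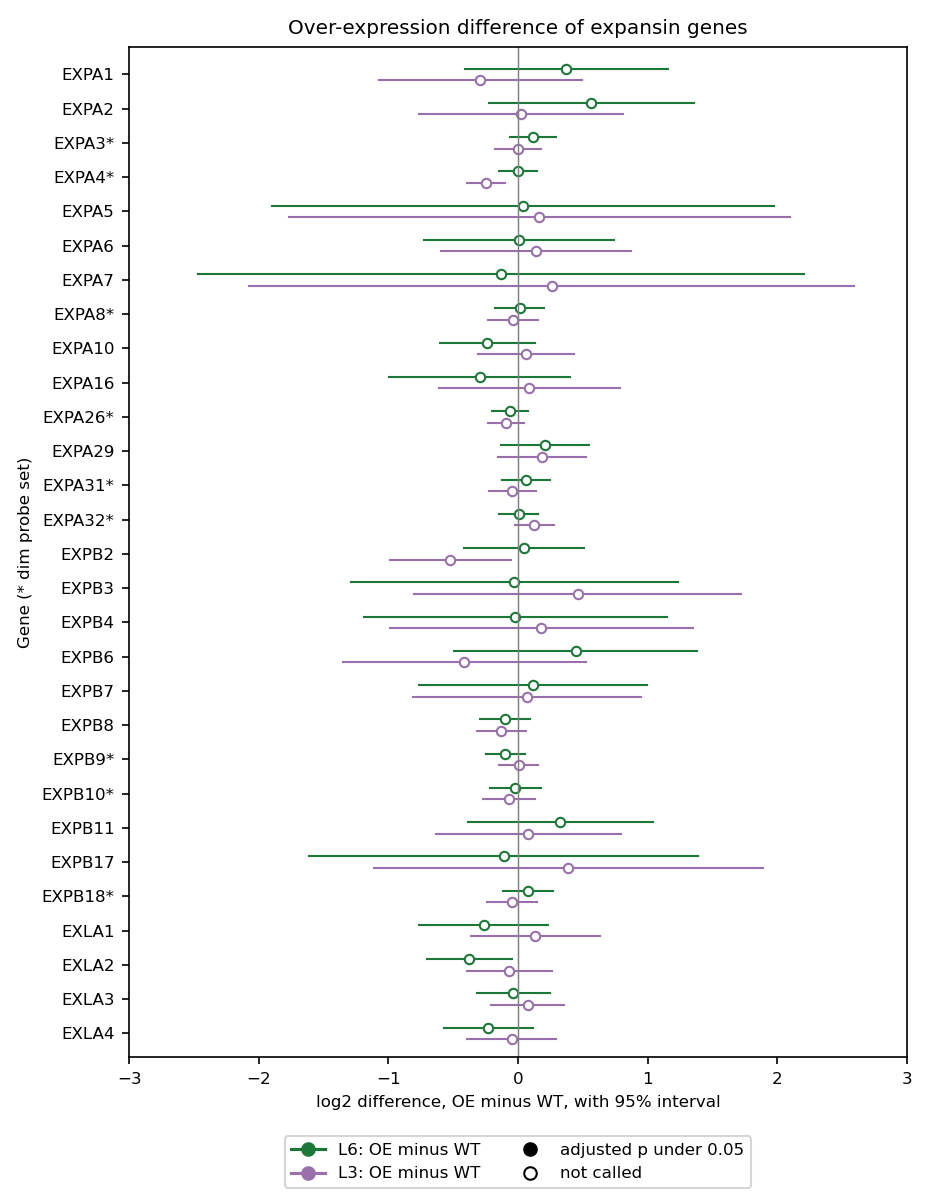
Log2 difference of OE minus WT with its 95% interval for each expansin gene, in L6 (upper mark of each pair) and L3 (lower mark); no mark is filled, since none had an adjusted p under 0.05. The widest intervals belong to EXPA5, EXPA7 and EXPB17, the genes with the most uneven old leaves.

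The leaf difference in OE minus the leaf difference in WT tests whether over-expression changed it. Limma called 0 of 29 expansin genes, where 7 probe sets, 0.0122%, were called. At an unadjusted p under 0.05 there was 1 of 29, against 2.98% of all probe sets: EXPA4, at 0.25 (unadjusted p = 0.0255). EXPB2 followed at 0.57 (unadjusted p = 0.0839) and EXLA2 at -0.31 (unadjusted p = 0.171). The values of the 29 genes ran from -0.50 for EXPB17 to 0.86 for EXPB6, with a median of 0.02. The calls of EXPA6, EXPB17 and EXLA4 in WT alone, and of EXPB6 and EXLA3 in OE alone, therefore do not show a leaf difference that depends on genotype.

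Of the 29 genes, 3 had more than 1 probe set, and these did not all read the same change. The second probe set of EXPB17 lay between 52.5 and 84.3 in all arrays, with leaf differences of 0.13 in OE and 0.05 in WT (adjusted p = 0.479 and 0.777), where the brightest probe set passed in WT. The other probe sets of EXPA7 lay between 43.0 and 79.0 and, for the dimmest, between 25.9 and 33.2. The brighter of these gave leaf differences of -0.23 in OE and -0.24 in WT, against 2.37 and 2.76 for the brightest. In OE_L3 replicate 3 and WT_L3 replicates 2 and 3, the brightest EXPB17 probe set read 28.2, 37.2 and 32.6, below the second at 70.3, 52.5 and 68.3. For EXPA7 these were 29.1, 46.9 and 51.0 against 62.5, 79.0 and 64.8. These probe sets were thus brightest through the other arrays, and taking the brightest can favour a large leaf difference. With the probe sets of each gene averaged, the WT leaf difference of EXPB17 was 1.18 and that of EXPA7 0.84. The probe sets of EXLA2 gave leaf differences of -0.13 and -0.15 in OE and 0.12 and 0.16 in WT, which lie within 1 SE of each other.

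**Figure D5:**
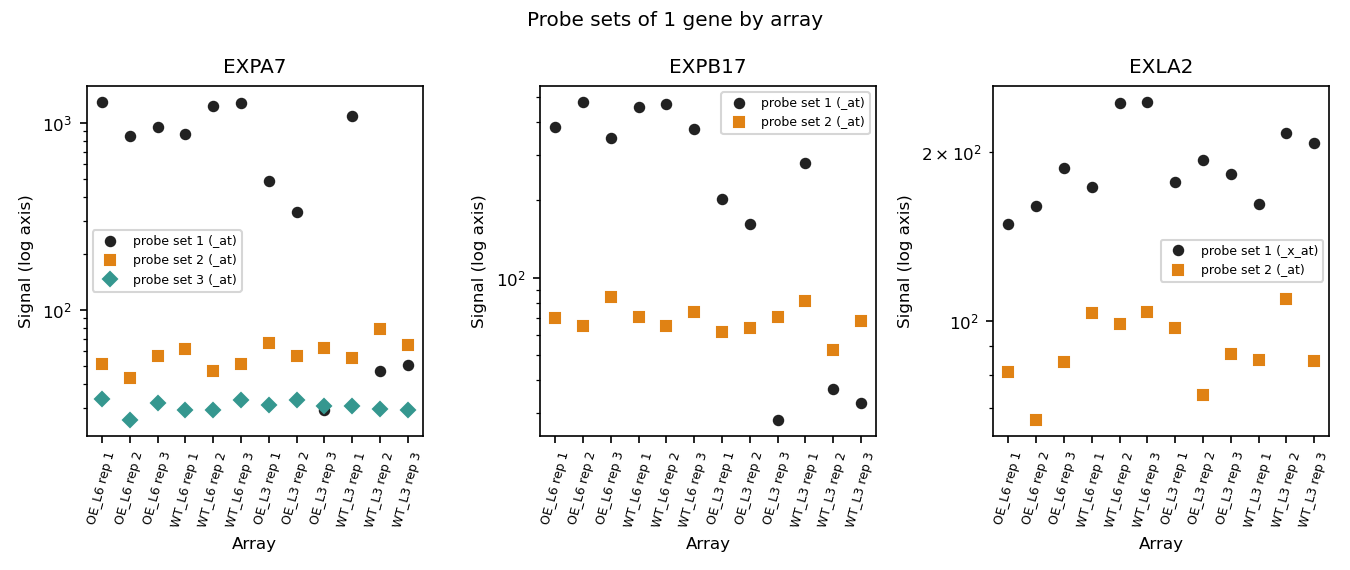
Linear signal on a log axis of each probe set of the 3 genes with more than 1, by array. The brightest probe sets of EXPA7 and EXPB17 drop in OE_L3 replicate 3 and WT_L3 replicates 2 and 3, while their other probe sets stay level.

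Other genes of wall growth were read from lists of symbols. Their counts stand beside the 11.9% of all probe sets called higher in OE_L6 and the 15.6% in WT_L6. The 1 xyloglucan enzyme gene with such a symbol, XTH8, which cuts and rejoins xyloglucan chains, had 2392, 1932 and 2321 in OE_L6, 2295, 2400 and 2539 in WT_L6, 1182, 1092 and 215 in OE_L3, and 1834, 191 and 208 in WT_L3. Its log2 leaf difference was 1.72 in OE (SE 0.78, adjusted p = 0.126), and it rose in WT, at 2.46 (SE 0.78, adjusted p = 0.0343). WT_L3 replicate 1 was its highest old leaf, and OE_L3 replicate 3 and WT_L3 replicates 2 and 3 were its lowest, as for EXPA7.

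Of 11 endoglucanase genes, which encode enzymes of cellulose trimming, 1 was higher in OE_L6 than in OE_L3 and 5 were higher and 1 lower in WT_L6 than in WT_L3. The call in OE was GLU10, at 0.87 (adjusted p = 0.0104), and in WT GLU13 was at 2.49 (adjusted p = 0.0354) and GLU2 at 1.68 (adjusted p = 0.0285). Of the 3 cellulose synthases of the primary wall, 0 passed in OE and 3 were higher in WT_L6, led by CESA8 at 1.98 (adjusted p = 0.0423) and CESA1 at 1.82 (adjusted p = 0.0431). In OE their unadjusted p-values were 0.0267 for CESA8, at 1.70, and 0.0414 for CESA1, at 1.42.

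Of 11 genes listed as growth regulating factors or their partners, 2 were higher in OE_L6 and 6 in WT_L6, and none passed as lower. GRF3, a transcription factor gene of leaf growth, was at 1.39 (adjusted p = 0.0385) in OE and 1.42 (adjusted p = 0.0317) in WT. The symbol GIF1 stands here for a cell-wall invertase gene, at 2.79 (adjusted p = 0.0447) in OE and 3.03 (adjusted p = 0.0288) in WT, and not for a partner of growth regulating factors. Across these lists limma called 0 genes between OE and WT in either leaf, where 0.108% of all probe sets were called in L3 and 0.0769% in L6. At an unadjusted p under 0.05 stood GLU10 and GRF12 in L6, with log2 differences of -0.49 and -0.27 (adjusted p = 0.736 and 0.729). In that comparison 6.67% of all probe sets did so, and these genes are not read as set apart.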

How the data were processed

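The labels' protocols describe total RNA from 12 rice leaves, labelled and hybridised to Affymetrix rice arrays. The deposited table gives a signal intensity for each of 57381 probe sets in each array. How the authors summarized and scaled it is not stated in the labels or headers, and that it is linear was read from the values. If they scaled arrays to equal totals, a shift common to all transcripts would not be seen. No further normalization was applied.

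In R 4.3.3, 187 control probe sets were left out and log2(intensity + 16) of the other 57194 was fitted with limma 3.58.1 (lmFit, eBayes with a trend, two-sided) over the 4 groups, with 8 residual degrees of freedom and no filter. Simulated data with known changes were used to test the fit. Their noise was independent and of equal spread in the 4 groups, so they do not show how the fit behaves with the uneven L3 arrays. Tables and figures were made in Python 3.11.15 (pandas 2.3.3, matplotlib 3.10.9).

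Gene IDs came from the platform annotation (1 gene for 22436 probe sets, several for 95, 34850 not listed and unnamed here), and symbols and neighbours from the gene table of assembly ASM3414082v1, in which all 17905 IDs were found. Members and lists were chosen with earlier results of these data known. Named with values were, per leaf comparison and subfamily, up to 5 highest and 5 lowest called genes whose groups do not overlap, every called or else the 3 smallest p in the other comparisons, every expansin-like gene, genes whose probe sets give different calls, and 2 genes per list. EXPA1, EXPA5, EXPA6, EXPA7, EXPA29, EXPB3, EXPB4, EXPB11 and GLU10 were added after their values were seen. A list of proton pump symbols matched no gene.

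L3 and L6 of a replicate come from 1 plant, per the labels, so the plant is the replicate block. In the fixed block this held for the leaf comparisons and the difference of leaf differences. For OE against WT within a leaf the fixed block was the replicate number, which joins plants that are not related. Deviations of a plant's leaves from their group means correlated at 0.099, 0.127 and 0.171 in OE replicates 1 to 3 and at -0.211, -0.302 and -0.037 in WT replicates 1 to 3. Alternatives were quantile normalization, pseudocounts of 1 and 64, filters at the 40th and 60th percentile, no trend, array weights, only the groups compared, a fixed or random block, mean or 1 probe set per gene, a 2-fold minimum, and each array left out.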

Additional observations from a re-analysis of the deposited data

How the results depend on the processing

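In each of the alternatives, 0 expansin genes were called between OE and WT in either leaf and in the difference of leaf differences, which needs all 4 groups and was not fitted with fewer. Between leaves, the number called higher in OE_L6 (5) was 8 with quantile normalization, with a pseudocount of 64 and with only the groups compared, 3 with a 2-fold minimum, and 1 to 10 with 1 array left out. The number lower in OE_L6 (1) was 0 with the replicate block, fixed or random, and with a 2-fold minimum, and 0 to 1 with 1 array left out. The number higher in WT_L6 (7) was 4 with a 2-fold minimum and 3 to 12 with 1 array left out. The median of the WT leaf difference was 0.89 with a filter at the 60th percentile, a signal of 82.7. This filter uses the mean over all 12 arrays, so a gene can pass it through its L6 signal alone. EXPA16 did so, with means of 69.5 in OE_L3 and 67.8 in WT_L3. The larger median is therefore partly built in and is not read as a result. The cause of the changes in the numbers called was not tested. In the replicate block, the plant gave adjusted p-values of 0.0271 for EXPA6, 0.0589 for EXPB6 and 0.0657 for EXLA3 in OE, and it changed no other call of an expansin gene. Over all 57194 probe sets, 6787 were called higher in OE_L6, and 2870 without OE_L3 replicate 3, and 8930 were called higher in WT_L6, and 4147 without WT_L3 replicate 3. Without WT_L3 replicate 1 these counts rose, to 8818 in OE_L6 and 10924 in WT_L6. In either direction, the 62 probe sets called in L3 between OE and WT were 21 with only the groups compared and 75 without WT_L3 replicate 1, the 44 in L6 were 29 to 60, and the 7 in the difference of leaf differences were 0 to 8. With 1 array left out, many differences between OE and WT took either sign. In L6 these included EXLA3 and EXPB2 (-0.18 to 0.06 and -0.11 to 0.32). In L3 they included EXPA7 (-0.44 to 1.62), EXPA5 (-0.47 to 1.37), EXPB17 (-0.07 to 1.23) and EXPB6 (-0.73 to 0.12). Between the WT leaves, EXPA2 (-0.37 to 0.35) and EXPB11 (-0.26 to 0.42) were among those that did so. Of the dim genes, EXPA8, EXPA4 and EXPB10 passed between leaves in single alternatives, with adjusted p-values of 0.0168 to 0.0482. Signals of the 9 dim genes allow no statement on small changes.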
